A study of Mus musculus with 14 samples.

Results

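Clone E is 1 of 6 clonal lines, each founded by a single sorted cell of 4T1 (a BALB/c mouse mammary carcinoma line), and its DNA methylation was set against clones T, I, K, L and P. Its members are every region with a level in the clone E column: 21965 promoters and 97247 autosomal hypomethylated regions (HMRs, stretches of the genome with low methylation), out of 22110 deposited promoter rows and 101564 HMRs. Clones E and T were labelled intravasating, which means that their cells were found to enter blood vessels, and clones I, K, L and P non-intravasating. No treatment was given, and the labels describe the same culture medium, with fetal bovine and fetal calf serum, for all clones. Each clone descends from 1 sorted cell, so it is 1 line and not a sample of many, and capacity to enter vessels was scored after 23 clones had been pooled. The deposited tables hold 1 value per clone, a fraction from 0 to 1 made from 2 sequencing rounds. The sources used here do not say how the rounds were merged or whether they came from separate cultures. The parental line was not analysed here.

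Methylation of cytosines in CG pairs is copied at each cell division, so a clone can carry the pattern of its founder cell for many generations. Promoters rich in CG are mostly kept free of methylation, and promoters of tissue-restricted genes, such as odorant receptors in cells outside the nose, are often methylated. In tumour cells wide parts of the genome lose methylation.

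Genes of odorant and pheromone receptors were frequent among the promoters at which clone E lay far from all other clones. The 5 sequences printed first show the setting of such promoters and of a few others. They are RefSeq windows of GRCm38.p6 from 250 bases before to 50 after the gene start, on the gene's strand, with each CG in capitals because CG is the pair that is methylated. CG reads the same on both strands, and 95.8% of the windows found for promoters in the table hold at least 1. The first pair belongs to the promoters with the widest gap above the other clones, Vmn2r96 at chr17:18581477-18581776 on the plus strand and Olfr805 at chr10:129723493-129723792 on the minus strand. Olfr136 at chr17:38334909-38335208 (plus) and Gm14458 at chrX:8986623-8986922 (minus) had the widest gaps below among genes with such a window. Cldn4 at chr5:134946885-134947184 (minus) was chosen after its values were seen, as an epithelial gene with a low promoter level in all other clones.
Vmn2r96: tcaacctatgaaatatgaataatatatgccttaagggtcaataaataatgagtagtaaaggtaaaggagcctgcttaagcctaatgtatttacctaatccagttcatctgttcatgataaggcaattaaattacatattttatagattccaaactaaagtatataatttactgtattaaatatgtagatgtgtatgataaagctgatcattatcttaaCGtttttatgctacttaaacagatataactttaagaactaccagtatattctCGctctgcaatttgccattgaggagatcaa
Olfr805: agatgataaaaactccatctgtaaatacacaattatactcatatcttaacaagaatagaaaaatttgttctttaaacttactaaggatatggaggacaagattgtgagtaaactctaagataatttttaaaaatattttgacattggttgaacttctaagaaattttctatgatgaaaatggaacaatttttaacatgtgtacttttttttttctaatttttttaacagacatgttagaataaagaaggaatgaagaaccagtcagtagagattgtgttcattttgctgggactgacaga
Olfr136: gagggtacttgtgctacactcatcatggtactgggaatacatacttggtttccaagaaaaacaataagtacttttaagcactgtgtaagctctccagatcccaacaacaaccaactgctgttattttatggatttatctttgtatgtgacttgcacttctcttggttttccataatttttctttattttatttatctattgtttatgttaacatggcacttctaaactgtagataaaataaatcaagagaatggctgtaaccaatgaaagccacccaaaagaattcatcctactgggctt
Gm14458: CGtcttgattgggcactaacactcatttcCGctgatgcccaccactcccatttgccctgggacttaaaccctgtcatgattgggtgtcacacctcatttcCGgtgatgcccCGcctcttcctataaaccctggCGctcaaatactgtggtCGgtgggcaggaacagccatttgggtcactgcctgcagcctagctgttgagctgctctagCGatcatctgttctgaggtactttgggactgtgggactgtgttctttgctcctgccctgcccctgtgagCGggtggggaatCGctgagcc
Cldn4: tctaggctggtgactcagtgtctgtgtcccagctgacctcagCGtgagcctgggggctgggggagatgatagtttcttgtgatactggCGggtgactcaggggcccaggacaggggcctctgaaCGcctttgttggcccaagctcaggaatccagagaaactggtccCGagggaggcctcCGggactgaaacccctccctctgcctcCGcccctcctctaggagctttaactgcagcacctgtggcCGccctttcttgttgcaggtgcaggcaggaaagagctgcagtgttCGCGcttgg
The Vmn2r96 window holds 2 CG pairs, those of Olfr805 and Olfr136 hold 0, and those of Gm14458 and Cldn4 hold 9 each. The sources used here do not give the boundaries over which the authors averaged a promoter, so a window shows the setting of a gene and not the measured bases. One of the promoters above all others belongs to a microRNA gene, Mir384 on chromosome X. Its 2 mature products are printed with the seed, bases 2 to 8, in capitals.
mmu-miR-384-5p: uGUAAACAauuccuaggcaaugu
mmu-miR-384-3p: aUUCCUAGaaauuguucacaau
The arms have different seeds. Windows were found for 76.6% of the promoters, too few for a comparison of CG content over the whole table, so that check was void and none is reported here.

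Clone E was not extreme in its promoters as a whole. Its mean promoter level was 0.404, against 0.393 ± 0.0187 (SD, n = 5) in the others. Clone T had a mean of 0.377, clone I 0.412, clone K 0.402, clone L 0.369 and clone P 0.405, so clone E was above T, K and L and below I and P. The difference of 0.0111 gave p = 0.833 in the exact permutation test (two-sided), which with 6 clones cannot fall below 0.167. Highly methylated promoters were fewer in clone E than in clones I, K and P. Levels of 0.9 or more were found in 3.99% of clone E's promoters, against 6.40% in clone I, 6.48% in clone K and 6.13% in clone P. Clone T had 2.78% and clone L 2.24% in that class.

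In HMRs clone E had the highest level of all clones. Its mean over autosomal HMRs was 0.195, against 0.145 ± 0.0272 (SD, n = 5) in the others. Clone T had a mean of 0.122, clone I 0.174, clone K 0.157, clone L 0.110 and clone P 0.161. The difference of 0.0496 gave p = 0.333 in the exact permutation test (two-sided, smallest possible 0.167), since clone L lay farther from the rest than clone E did. The median HMR level was 0.174 in clone E and 0.124 ± 0.0284 (SD, n = 5) in the others (p = 0.167, exact permutation test, two-sided, the smallest it can give). Regions at exactly 0 were rarer in clone E, with 24.8% of its autosomal HMRs, than in the other clones, with 29.8% to 34.8%. Levels of 0.5 or more were reached in 6.55% of its HMRs and in 0.845% to 4.75% elsewhere. Whether a level of 0 stands for an unmethylated region or for a failed estimate cannot be read from the table.

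**Figure D1:**
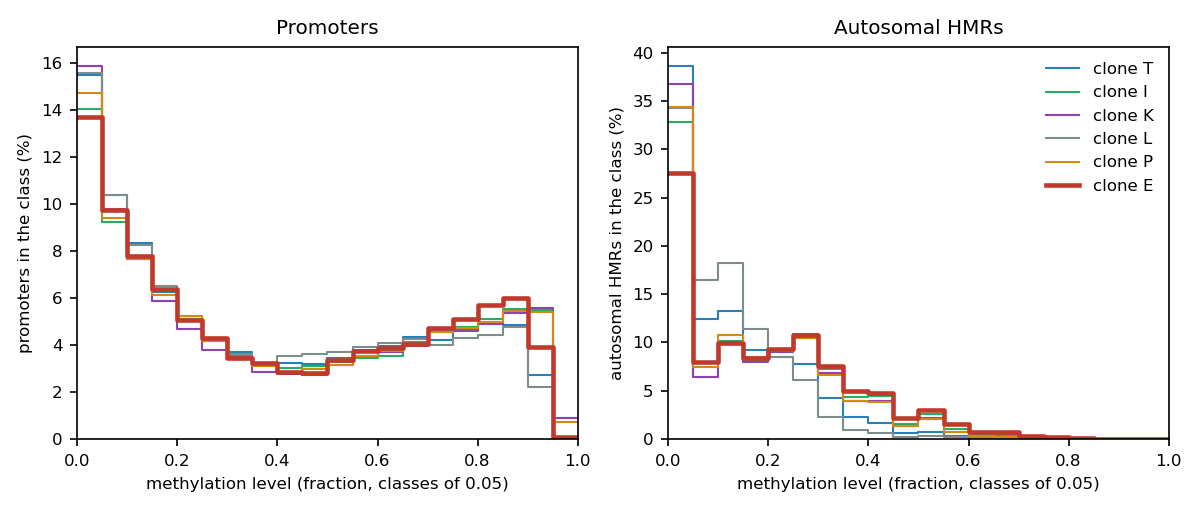
Share of promoters (left) and autosomal HMRs (right), in percent, in classes of methylation level 0.05 wide, 1 line per clone with clone E thick. Clone E has 24.8% of HMRs at exactly 0, fewer than any other clone, and 3.99% of promoters at 0.9 or more, between clones T and L on one side and I, K and P on the other.

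The clone nearest to E was I, a non-intravasating line, and not T, the other intravasating one. Over autosomal HMRs the mean absolute difference from clone E was 0.0704 for clone I, 0.0753 for P, 0.0813 for K, 0.0920 for T and 0.107 for L. Pearson's r across regions with clone E was 0.815 for clone I and 0.747 for clone T, a description across regions of shared genome position that are not replicates. Over promoters the mean absolute difference was 0.0401 for clone I and 0.0461 for clone T. Compared with T alone, clone E was higher at 62.3% and lower at 14.5% of autosomal HMRs, and equal at the rest.

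Position relative to all 5 others was then counted region by region. Clone E lay above all other clones at 4131 promoters (18.8% of those tested) and below all at 1973 (8.98%). Each clone was then centred on its own median, which subtracts 0.0173 from clone E's differences. The shares turned to 9.26% above and 19.9% below, so the direction of small gaps depends on the scaling. Since the mean difference over promoters was 0.0111 and the median 0.00557, this step overshot and left a mean of -0.00619. Where the others averaged under 0.1, the share above fell from 25.5% to 3.15%. Promoter shares after centring thus lean downward. Wide gaps lay mostly above, as they did in clones I, K and P. A gap of at least 0.1 to the nearest clone was found above at 134 promoters (0.61%) and below at 23 (0.105%), against 185 and 25 in clone I, 139 and 39 in K, 113 and 21 in P, 27 and 222 in T, and 62 and 545 in L. A gap of at least 0.2 was found above at 20 (0.0911%) and below at 1 (0.00455%), and after centring at 17 and 2. In autosomal HMRs, clone E was above all others at 26512 (27.3%) and below all at 2270 (2.33%), with a gap of at least 0.2 above at 1309 (1.35%) and below at 32 (0.0329%). Centring on the mean, which subtracts 0.0496, gave 15.9% above and 34.4% below, and the second share includes HMRs that are at 0 in every clone. For HMRs above 0 in all 6 clones the centred shares were 21.1% above and 16.4% below. Their own mean difference was 0.0668, so subtracting the mean over all autosomal HMRs left 0.0172. Clones I and P were above all others at more promoters than E, 6106 and 4355, and at fewer autosomal HMRs, 16269 and 11388. Clone L was below all others most often, at 7895 promoters and 25223 autosomal HMRs.

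**Figure D2:**
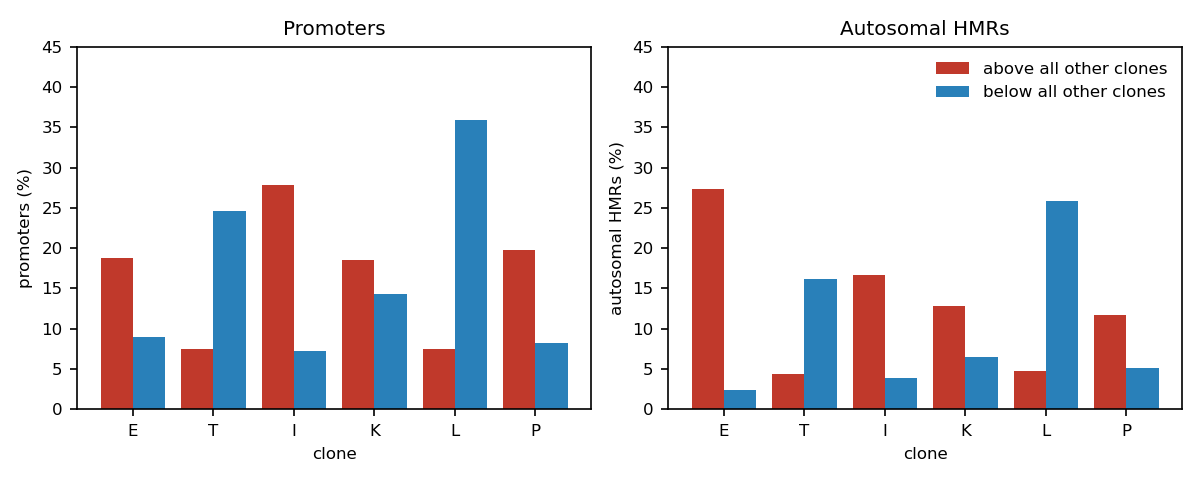
Percent of promoters (left) and autosomal HMRs (right) at which each clone lies above (red) or below (blue) all 5 other clones. Clone E has the tallest red bar in HMRs, 27.3%, with 2.33% below, and 18.8% above with 8.98% below in promoters.

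Tested one promoter at a time, 1 promoter was called. With limma (clone E against the mean of the 5 others, Benjamini-Hochberg adjustment over all 21965 promoters, adjusted p under 0.05), the count was 1, or 0.00455%, and 910 promoters had an unadjusted p under 0.05, of which 773 were higher and 137 lower in clone E. The lone value of clone E is assumed in this fit to vary like the other clones. The called promoter was Klra33, on chromosome 6, a member of the Ly49 receptors of natural killer cells. Its level was 0.333 in clone E, 0.0909 in clones T, I and K, and 0.0833 in clones L and P. The difference of 0.245 had an SE of 0.0195 and an adjusted p of 0.0126 in limma, and over 10 settings the adjusted p ran from 0.0126 to 0.167. The call ended after centring (0.167), on a logit scale (0.0864), without a mean trend (0.1001), without clone L (0.124) and without clone P (0.0595). Each of the 6 Klra33 levels is a simple fraction, and its depth is unknown.

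The 12 promoters with the widest gap above the others held 4 odorant or pheromone receptors and 2 natural killer receptors. Vmn2r96, a vomeronasal pheromone receptor on chromosome 17, had a level of 0.667 in clone E, 0.286 in clone I, 0.2 in clone L and 0 in clones T, K and P. Olfr805, an odorant receptor on chromosome 10, had 0.806 in clone E, 0.382 in T, 0.484 in I, 0.266 in K, 0.181 in L and 0.486 in P. Both genes stood well clear of the next clone, by 0.381 and 0.320. Olfr788, also on chromosome 10, had 0.564 in clone E against 0.0430 to 0.315, and Olfr195 on chromosome 16 had 0.588 against 0.0862 to 0.364. The Mir384 promoter had 0.850 in clone E, 0.588 in T, 0.480 in I, 0.357 in K, 0.578 in L and 0.575 in P. Klra1, another Ly49 receptor on chromosome 6, had 0.444 against 0.143 to 0.225. The other genes of this set were Gm4937 and 4921511C20Rik on chromosome X, 4933402N22Rik and 5031410I06Rik on chromosome 5, and Gm11569 on chromosome 11. Gm11569, for example, had 0.667 in clone E, 0.0714 in T, 0.250 in I, 0.133 in K, 0 in L and 0.444 in P. Their adjusted p in limma ran from 0.0126 to 0.875. When promoters with a range over the 6 clones under 0.1 were left out, 10 of the 12 were called (adjusted p from 2.7e-12 to 0.0357), and Vmn2r96 was also called without clone I (0.0475). That filter keeps promoters in part by clone E's own distance from the others. These calls also rest on the variance fitted across promoters, since at Vmn2r96 the SD of the 5 others was 0.136. In 6 of the 12 the clone E level equals a whole number of parts of up to 12, as 0.667 and 0.333 do, against 2.61% of all promoters. Whether thin coverage has a part in these gaps was not tested.

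Downward gaps were fewer and smaller. Olfr136, an odorant receptor on chromosome 17, had 0.212 in clone E, 0.522 in T, 0.567 in I, 0.721 in K, 0.651 in L and 0.750 in P. It was the one promoter at which clone E lay below all others by more than 0.2. Gbp6, an interferon-induced guanylate-binding protein, had 0.184 in clone E, 0.388 in T, 0.466 in I, 0.381 in K, 0.444 in L and 0.368 in P. Pak1, a kinase that acts on the cytoskeleton downstream of Rac and Cdc42, had 0.143 in clone E, 0.405 in T, 0.281 in I, 0.275 in K, 0.335 in L and 0.369 in P. Prl4a1, a placental member of the prolactin family, had 0.667 against 0.829 to 0.909. In all 4 genes the other clones lie above clone E by the way the set was chosen. Their levels were middle in Gbp6 and Pak1 and high in Prl4a1. Dmpk, the kinase gene of myotonic dystrophy, had 0.184 against 0.311 to 0.508. Tnfrsf13c, the receptor of B cells for the survival factor BAFF, had 0.426 against 0.545 to 0.612. Col20a1, a collagen gene, had 0.475 against 0.6 to 0.724. One of the 2 promoters of Pld1, a phospholipase D, had 0.387 against 0.547 to 0.613. The set was completed by Gm14458 (0.5 against 0.679 to 0.968), Gm3833 (0.213 against 0.365 to 0.619), D7Ertd715e (0.429 against 0.558 to 0.8) and Olfr1294 (0.148 against 0.269 to 0.538). In 3 of the 12 the clone E level equals a whole number of parts of up to 12, against 2.61% of all promoters. A part of thin coverage was not tested here either. None of the 12 was called, with adjusted p from 0.288 to 1.0 in limma. When promoters with a range under 0.1 were left out, Olfr136 (adjusted p = 0.000317) and Gm14458 (0.00473) were called. That filter keeps promoters in part by clone E's own distance, so these calls are no separate support. It gave 38 calls among 9625 promoters, 34 higher and 4 lower in clone E.

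**Figure D3:**
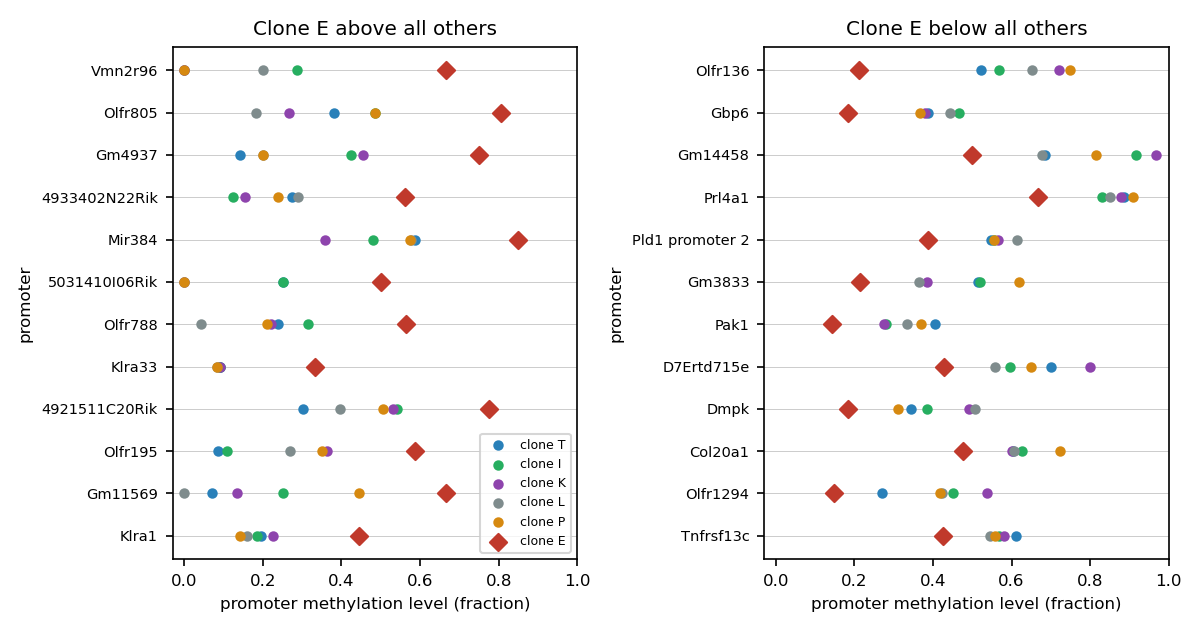
Promoter methylation level (fraction) of the 12 promoters with the widest gap above (left) and below (right) the other clones, with 1 point per clone and clone E as a red diamond. Gaps above run from 0.219 to 0.381 and gaps below from 0.118 to 0.310.

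The make-up of the 134 promoters above all others by at least 0.1 is given beside that of all promoters, as a description. Odorant receptor (Olfr) genes made up 32 of them, or 23.9%, against 5.04% of all promoters, and vomeronasal receptors made up 11, or 8.21% against 1.24%. Chromosome X held 16.4% of them against 4.17% of all, chromosome 10 held 15.7% against 4.72%, and chromosome 6 held 14.9% against 5.41%. The Olfr and chromosome 10 shares overlap, since 17 of the 32 Olfr promoters lay on chromosome 10. Of the 23 below by at least 0.1, 6 lay on chromosome 7 (26.1% against 8.78%). Olfr genes made up 4 of the 23 (17.4% against 5.04%), so their share was above that of all promoters in both directions. On either side of the 0.1 line lay Acnat2 (gap 0.1) and Olfr924 (0.1001) just inside above, Ccdc17 (0.0997) and Lyz2 (0.0995) just outside, 1700008F21Rik (0.102) just inside below and Dqx1 (0.0992) just outside.

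Some genes of this wider set act in immunity, vessels or epithelium, and are given here as examples chosen after their values were seen. Cldn4, a claudin of epithelial tight junctions, had a promoter level of 0.256 in clone E, 0.0125 to 0.105 in the other clones, and an adjusted p of 0.225 in limma (unadjusted 0.000133). Casp1, the caspase that processes interleukin-1, had 0.427 against 0.139 to 0.316. All genes of this set lie above the other clones by the way it was chosen. Icam1, an adhesion molecule for leukocytes, had 0.677 against 0.399 to 0.547, and Il23a, a cytokine subunit, had 0.405 against 0.166 to 0.275. Flt1, a receptor for vascular endothelial growth factor, had 0.474 against 0.320 to 0.372, and Notch4, a Notch receptor of endothelium, had 0.588 against 0.408 to 0.486. None of these was called by limma.

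Serpine2 and Slpi, secreted protease inhibitors that the work on these clones is known for, did not set clone E apart. The Serpine2 promoter had 0.449 in clone E, 0.229 in T, 0.611 in I, 0.309 in K, 0.489 in L and 0.323 in P. The Slpi promoter had 0.614 in clone E, 0.579 in T, 0.690 in I, 0.5995 in K, 0.580 in L and 0.673 in P. Clone E lay inside the range of the others at both, with an adjusted p of 1.0 in limma at each.

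Among gene families with at least 15 promoters, clone E stood highest most often in the killer cell lectin-like receptors (Klr, the Ly49 and NKG2 receptors of natural killer cells). It was above all others at 13 of 32 promoters, or 40.6%, and below all at none, with the same counts after centring. For all promoters the shares were 18.8% and 8.98%, or 9.26% and 19.9% after centring. The family mean was 0.480 in clone E, against 0.360 in T, 0.385 in I, 0.376 in K, 0.318 in L and 0.420 in P. Klra17 had 0.549 in clone E and 0.156 to 0.349 in the others, Klra22 had 0.311 and 0.0635 to 0.192, and Klre1 had 0.696 and 0.390 to 0.561. The same family had members where clone E was not high, such as Klra10 (0.0714, with clone I at 0.5) and Klrg1 (0.829 among 0.779 to 0.857). Leaving out 1 of the other clones gave 13 to 17 promoters. Several Klr genes share levels or near-identical sequence, for example Klra12 with Klra13-ps, and count more than once. Those with a place in RefSeq all lie on chromosome 6.

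The next of these families by share above were the major urinary proteins, the cornified envelope genes and the trace amine receptors. The major urinary proteins (Mup, pheromone carriers secreted by liver) had a mean of 0.316 in clone E and 0.224 ± 0.0401 (SD, n = 5) in the others, with 6 of 17 promoters above all and 1 below, before and after centring. Mup20 had 0.385 in clone E and 0.0714 to 0.176 in the others, and Mup14 had 0.333 and 0 to 0.167. The late cornified envelope and small proline-rich genes (Lce and Sprr, of the outer skin) had 10 of 30 above and 2 below, and 8 and 2 after centring. Their mean was 0.460 in clone E, 0.365 in T, 0.430 in I, 0.473 in K, 0.394 in L and 0.441 in P, so clone K was highest, and clone E exceeded the mean of the others at 17 of 30. Sprr1b had 0.518 in clone E against 0.214 to 0.331, while Lce1f had 0.315 against 0.359 to 0.535. The trace amine receptors (Taar, olfactory receptors for amines) had 5 of 15 above and 0 below, and 4 and 0 after centring. All are clusters of related tissue-restricted genes.

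The prolactin family, a chromosome 13 cluster of hormones made mostly in the placenta, had its low levels in clone E more often. Clone E was below all others at 6 of 25 promoters (24.0%) and above at 0, and at 14 (56.0%) and 0 after centring. For all promoters the shares below were 8.98%, or 19.9% after centring. For promoters at 0.7 to 0.9 in the mean of the others, they were 8.84% and 26.8%. Centring thus raises the count below at high levels. The family mean was 0.818 in clone E, 0.808 in T, 0.865 in I, 0.868 in K, 0.835 in L and 0.870 in P, so clone T was lower still. Besides Prl4a1, Prl3c1 had a promoter at 0.769 in clone E and 0.843 to 0.909 in the others, and Prl3d3 had 0.739 and 0.790 to 0.868. The small nucleolar RNA genes had 24 of 100 below and 23 above (35 and 5 after centring), S100 proteins 4 of 17 below and 1 above (the same after centring), and Wnt ligands 4 of 20 below and 3 above (6 and 2 after centring). Of 48 families with at least 15 promoters, 40 had a higher mean in clone E than the mean of the others, and 20 after centring.

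Odorant receptors as a whole were less extreme than 1 group of them. Of 1106 Olfr promoters, against 18.8% above and 8.98% below for all promoters, clone E was above all others at 273 (24.7%) and below at 74 (6.69%), and after centring at 224 and 152. Type 2 vomeronasal receptors gave 31 of 102 above and 6 below (21 and 11 after centring), and type 1 gave 29 of 170 (17.1%) above and 8 below (26 and 17), a share above no higher than the 18.8% of all promoters. On chromosome 10, however, clone E was above all others at 46 of 64 Olfr promoters (71.9%) and below at none, and at 43 after centring. It was higher than the mean of the others at 62 of the 64. Leaving out each other clone gave 46 to 51 promoters.

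Most of those promoters belong to 1 cluster. In RefSeq order the 64 genes form 2 clusters more than 1 Mb apart, 9 genes from Olfr1357 to Olfr57 and 55 from Olfr9 to Olfr827. In the larger one, clone E had a mean level of 0.538, against 0.328 in T, 0.444 in I, 0.352 in K, 0.254 in L and 0.361 in P, and was above all others at 44 of 55 (80.0%; 41 after centring). In the smaller one its mean was 0.304, against 0.234 ± 0.0566 (SD, n = 5), with 2 of 9 above all others. The size of the difference varied within the larger cluster, from -0.0624 at Olfr773 to 0.470 at Olfr813. Olfr813 had 0.598 in clone E, 0.0755 in T, 0.390 in I, 0.0513 in K, 0.0385 in L and 0.0877 in P, with clone I second highest. Olfr815 had 0.286 in clone E, 0.0952 in T, 0.133 in I, 0.0800 in K, 0.0930 in L and 0.0800 in P, with an adjusted p of 0.114 in limma. Olfr822 stayed low in every clone, with 0.0536 in E and 0 to 0.0294 in the others. Clone I was second highest at 31 of the 55. None of the 64 was called, and 26 had an unadjusted p under 0.05.

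These genes also formed the longest unbroken stretch for clone E. With promoters of neighbouring genes in RefSeq order averaged per gene, clone E was above all others at 23 genes in a row, Olfr782 to Olfr810, where its mean was 0.561 and that of the others 0.317. A second stretch of 9 genes, Olfr819 to Olfr827, had 0.524 against 0.323. The first stretch includes Olfr806, where clones E and P both had 0.6117, so at that gene the stretch rests on a gap of 5.2e-05. After centring the longest stretch was 12 genes. The longest for the other clones was 4 genes in T, 7 in I, 8 in K, 3 in L and 7 in P, and clone L had 13 in a row below all others. Stretches of at least 5 genes above all others numbered 16 in clone E and 44 in clone I. These stretches were looked for after values had been seen. A further stretch of 6 was a set of microRNA genes of the imprinted Dlk1-Dio3 region on chromosome 12, Mir667 to Mir300, with 0.630 in clone E against 0.551. Outside chromosome 10, clone E was above all others at 21.8% of 1042 Olfr promoters and below all at 7.10%.

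**Figure D4:**
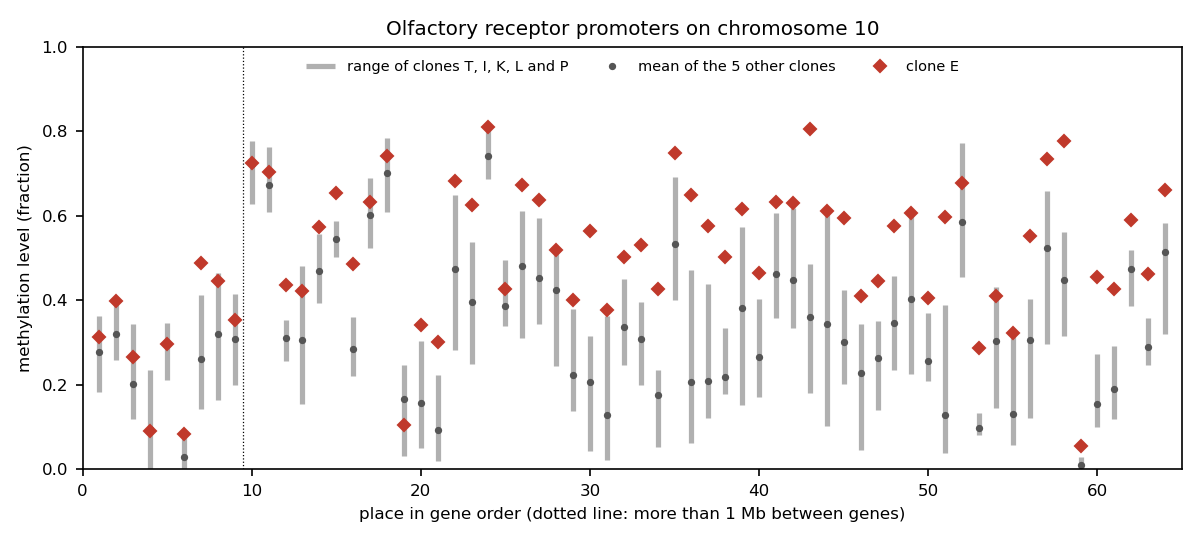
Methylation level (fraction) of 64 Olfr promoters on chromosome 10 in gene order, with clone E as red diamonds, the range of the 5 other clones as grey bars and their mean as dots. To the right of the dotted line, the 55 promoters of the larger cluster have clone E above the grey bar at 44.

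In the gene lists that bear on tumour cells and their surroundings, no promoter was called by limma. Clone E lay above all others at 8 and below all at 6 of 42 epithelial promoters (5 and 9 after centring), and at 3 and 7 of 40 mesenchymal ones (4 and 15). The counts were 5 and 1 of 37 for matrix proteases and their inhibitors (3 and 9), 11 and 6 of 37 for coagulation and fibrinolysis (7 and 9), and 4 and 3 of 36 for cytokines and chemokines (1 and 8). They were 4 and 7 of 38 for antigen presentation and interferon response (2 and 6), 3 and 2 of 48 for imprinted genes (0 and 16), and 6 and 2 of 39 for germline genes (5 and 11). They were 8 and 2 of 38 for the DNA methylation machinery (3 and 9), 7 and 2 of 42 for tumour suppressors (3 and 7), and 5 and 4 of 38 for luminal and basal mammary genes (2 and 8). Marker lists of other cell types gave 6 and 0 of 26 for leukocytes (5 and 1), 2 and 2 of 17 for fibroblasts (3 and 5), and 1 and 0 of 22 for endothelium (1 and 4), and housekeeping genes gave 7 and 3 of 27 (2 and 5). For all promoters together the shares were 18.8% above and 8.98% below, or 9.26% and 19.9% after centring.

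Of the defining markers of cell types, epithelial promoters were lower in methylation than leukocyte and endothelial ones, in clone E as in the other clones. In clone E the epithelial ones had 0.0900 (Krt8) to 0.285 (Cldn7 promoter 2). Leukocyte and endothelial ones had 0.633 (Cd3e) to 0.880 (Pecam1). Mesenchymal and fibroblast markers were mixed. Epcam and Cdh1, adhesion molecules of epithelium, had levels of 0.168 and 0.106 in clone E, inside the range of the others (0.131 to 0.208 and 0.0375 to 0.120). Vim, the mesenchymal intermediate filament gene, was at 0.00326 (0.00236 to 0.0180), and Cdh2 and Zeb1 at 0.923 and 0.931 (0.904 to 0.949 and 0.935 to 0.965). Zeb1 thus lay just under the others. Col1a1, listed as mesenchymal, was at 0.378 (0.343 to 0.486). Ptprc, the CD45 gene of leukocytes, was at 0.854 (0.708 to 0.824), above all others, and Pecam1 of endothelium at 0.880 (0.812 to 0.888). Among fibroblast markers, Pdgfra promoter 1 was at 0.0596 in clone E and promoter 2 at 0.633. Col1a2 was at 0.902, and the Dcn promoters at 0.684 and 0.783. These are promoter levels and say nothing of expression.

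HMRs gave far more calls than promoters, and nearly all were upward. With limma fitted over all HMRs, 2897 were called (2.85%), and of the autosomal ones 2342 (2.41%), 2339 higher and 3 lower in clone E. Of these, 1844 were regions at 0 in all 5 other clones, which is every autosomal HMR of that kind with clone E above 0, down to a level of 0.00926, and their median level in clone E was 0.0714. For such regions the others have no spread, so these calls rest on the fitted variance. The other 498 had a median difference of 0.191. When only HMRs above 0 in all 6 clones were fitted, with chromosome X included, 175 of the 50136 autosomal ones were called. All of them were higher in clone E. Centring each clone on its mean left 127 called higher and 3 lower. Regions at which a single clone was above 0 were most frequent for E (1844), then L (1159), with 302 to 523 for the other clones.

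The HMRs with the widest gaps above had levels of 0 to 0.117 in the other clones, where a 0 may be a failed estimate. The HMR at chr16:70814152-70818158 had a level of 0.529 in clone E and 0 in every other clone (adjusted p = 7.9e-05 in limma). On chromosome 12, 2 regions within 1 Mb of each other stood out, chr12:37860606-37868075 with 0.594 in clone E, 0.0694 in P and 0 in T, I, K and L, and chr12:37594487-37598116 with 0.618 in clone E and 0 to 0.117 in the others. The HMR at chr15:85404569-85407843 had 0.6 in clone E against 0 to 0.0909. A further pair, chr12:108123739-108124518 and chr6:138696317-138702176, had 0.5 in clone E and 0 in all others. All 6 were called, and on a logit scale 3 of them were not, with adjusted p of 0.155, 0.807 and 0.835.

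Downward HMRs were few and short. The HMR at chr14:100146489-100147722 had 0 in clone E, 0.524 in T, 0.545 in I, 0.545 in K, 0.455 in L and 0.5 in P, with an adjusted p of 0.00749 in limma. The HMR at chr16:34572927-34573088, 161 bp long, had 0.182 in clone E against 0.667 to 0.810, and was not called (adjusted p = 0.999). Its difference of -0.551 had an SE of 0.592 in limma, while the SD of the other clones was 0.0540. The missing call at that HMR thus rests on the fitted variance, and over 11 settings it depended on the setting. The other 4 downward HMRs were chr1:194561776-194563400 (0 against 0.444 to 0.818), chr2:117950858-117952115 (0.167 against 0.550 to 0.789), chr16:22844291-22844999 (0 against 0.367 to 0.667) and chr11:3883565-3883737 (0 against 0.333 to 0.792). Of the 32 HMRs below all others by at least 0.2, 17 were at exactly 0 in clone E, and their median length was 1138 bp. The 1309 above had a median length of 5814 bp and a median level of 0.5, against 0.166 in the others. HMR coordinates are those of the deposited table, in a build that is not established, so no gene is named for an HMR.

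Length and chromosome went with the size of clone E's difference. The mean difference was -0.00523 in HMRs under 1000 bp, 0.00609 from 1000 to 2000 bp, 0.0462 from 2000 to 5000 bp and 0.0678 from 5000 to 10000 bp. From 10000 to 20000 bp it was 0.0619, and above 20000 bp 0.0477. Clone E was thus not higher in the shortest regions, where clone L had the highest mean, 0.186. By chromosome the difference was largest on chromosome 10, 0.0962, where clone E was above all others at 41.8% of HMRs. Chromosome 16 followed with 0.0749, and chromosome 11 had the smallest difference, 0.0274. Chromosomes 10, 12 and 16 held 30.6% of the HMRs above by at least 0.2 and 11.6% of all autosomal HMRs. They were chosen after these counts were seen, with 106, 110 and 184 such HMRs, and chromosome 6 followed with 102. The mean difference on chromosome 12 was 0.0539.

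In bins of 10 Mb, clone E was highest almost everywhere. It had the highest mean level in 238 of 256 autosomal bins (93.0%) and the lowest in 0. Clone I was highest in 9, K in 7, L and P in 1 each and T in none, while L was lowest in 193 bins and T in 60. The difference from the mean of the others ranged from -0.00566 to 0.229 with a median of 0.0437. It was above 0 in 255 bins, and at least 0.1 in 26. After each clone was centred on its mean, clone E was highest in 56 bins and lowest in 82, so that its rank held in the raw levels and its spread over bins was uneven. The SD over bins was 0.0668 in clone E and 0.0235 to 0.0546 in the others.

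The bins with the largest differences were scattered over 6 chromosomes. The bin of chromosome 16 from 70 to 80 Mb had 0.401 in clone E, 0.120 in T, 0.228 in I, 0.180 in K, 0.135 in L and 0.201 in P, and was the single bin with a gap of at least 0.1 to the next clone. Clone E was above all others at 76.8% of its 319 HMRs, 88 of them by at least 0.2. Next came chromosome 15 from 40 to 50 Mb (0.482 in clone E, 0.135 to 0.410 in the others), chromosome 1 from 140 to 150 Mb (0.480, 0.213 to 0.417) and chromosome 10 from 30 to 40 Mb (0.454, 0.152 to 0.358). Chromosome 9 from 80 to 90 Mb had 0.374 (0.119 to 0.3001) and chromosome 2 from 50 to 60 Mb 0.398 (0.152 to 0.355). In these 6 bins the next clone was always I.

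At the other end, 6 bins showed little or no difference. The bin of chromosome 11 from 120 to 130 Mb had 0.0410 in clone E and 0.0324 to 0.0630 in the others, the one bin with clone E under their mean. On chromosome 19 from 0 to 10 Mb clone E had 0.0874 (0.0598 to 0.0958), and on chromosome 16 from 0 to 10 Mb 0.0991 (0.0647 to 0.114). The remaining 3 were chromosome 11 from 70 to 80 Mb (0.102, 0.0730 to 0.106), chromosome 16 from 20 to 30 Mb (0.155, 0.1002 to 0.173) and chromosome 7 from 150 to 160 Mb (0.139, 0.0842 to 0.157). Chromosome 16 thus held both the largest difference and 2 of the 6 smallest. Over the 256 bins, Pearson's r with clone E was 0.951 for clone I, 0.889 for P, 0.833 for T, 0.811 for K and 0.721 for L, a description over bins that share the genome's base composition.

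**Figure D5:**
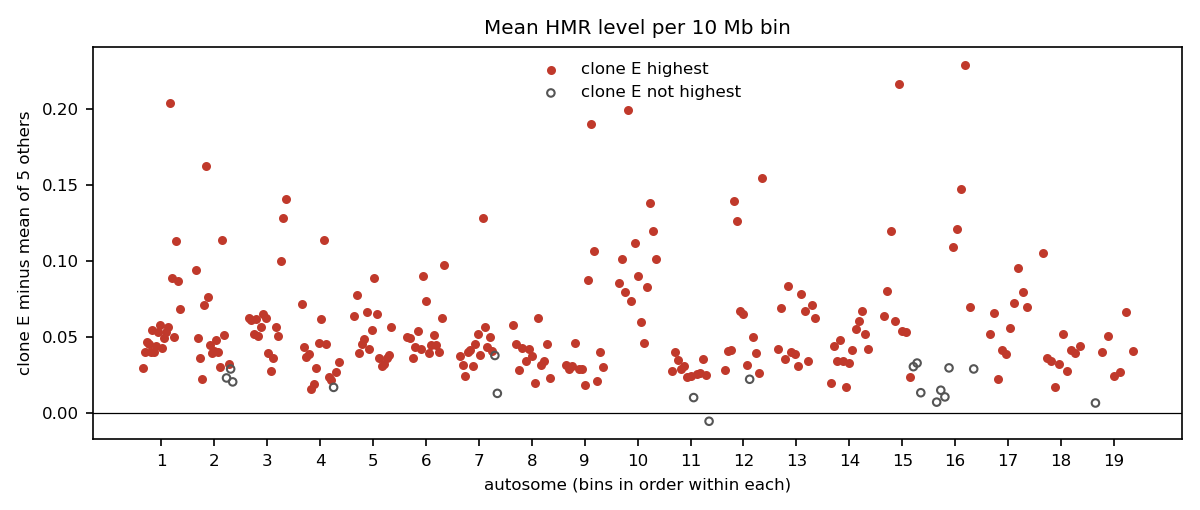
Difference in mean HMR level (fraction) between clone E and the mean of the 5 other clones in 256 autosomal bins of 10 Mb, in order along each autosome, with bins where clone E is highest filled in red. The difference is above 0 in 255 bins and reaches 0.229 on chromosome 16.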

How the data were processed

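DNA of the clones was fragmented, bisulfite converted and sequenced as paired ends, per the labels' protocols. The submitters' processing notes name bedtools, DESeq and the build mm10, with no role. The sources used here do not give the aligner, promoter boundaries, HMR caller or coverage limits. The authors deposited methylation levels as a fraction from 0 to 1, 1 column per clone, with no counts, so depth is unknown and no counting interval is given. HMR coordinates are not mm10: 379 HMRs on chromosome 7 end past its last RefSeq gene (145.3 Mb), up to 152.5 Mb. Promoter rows repeating the same gene and levels (145) were counted once, and 249 promoters share levels with another gene. Of 20343 gene names, 18885 matched RefSeq (GRCm38.p6) by symbol and 1359 by synonym.

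Clone E was compared with the mean of clones T, I, K, L and P by limma 3.58.1 in R 4.3.3 (eBayes with mean trend, Benjamini-Hochberg over each whole table, tested on simulated data), and mean levels by exact permutation. Other figures are counts and means (Python 3.11.15, NumPy 2.4.6, pandas 2.3.3, SciPy 1.17.1, matplotlib 3.10.9), with bins of at least 20 HMRs placed by midpoint. Members, gene lists and tests were chosen with earlier results of these data known. Named by rule were, in each direction, the 12 promoters and 6 HMRs with the widest gap, up to 10 called promoters, the 6 bins with the largest and smallest differences, the 4 families (of those with at least 15 promoters) with the highest shares, every gene list, Serpine2 and Slpi. Other names were chosen after their values were seen. Alternatives were a logit scale bounded at 0.01 and 0.99, no mean trend, centred clones, a range of at least 0.1, HMRs above 0 in all clones or of at least 1000 bp, other gaps and bin widths, other averages, and each clone left out. P-values refer only to these 6 lines, and those of limma rest in part on a variance fitted across regions.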

Additional observations from a re-analysis of the deposited data

Results flagged for a closer look

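Among the 5 other clones, 1 clone stood far from the remaining ones at 2 of 41 regions looked at, by the gap to its neighbour as a share of the whole range. Chance alone marks about 1 in 20 such groups. At the Col20a1 promoter clone P had a level of 0.724 and the other non-E clones 0.600 to 0.628. At the HMR chr12:37860606-37868075 clone P had 0.0694 and clones T, I, K and L had 0.

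HMRs on chromosome X lay outside the autosomal comparison and also had their highest level in clone E. The mean over 4301 HMRs was 0.225 in clone E, 0.0654 in T, 0.134 in I, 0.0499 in K, 0.0604 in L and 0.0963 in P. Clone E was above all others at 1591 of them (37.0%) and below all at 12 (0.279%), against 27.3% and 2.33% of autosomal HMRs. By limma 554 were called, all higher, where the share called among all HMRs was 2.85%. Of the 554, 443 were at 0 in all 5 other clones, so those calls rest on the fitted variance. The remaining 111 had some other clone above 0.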

How the results depend on the processing

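No paired analysis was possible because the 2 rounds of a clone have no columns of their own. The promoter call was the least stable result: the count of 1 became 8 on a logit scale, 38 when low-variation promoters (a range under 0.1, set in part by clone E's own distance) were left out, and 0 without a mean trend (849 at an unadjusted p under 0.05) and after centring (893), and 0 to 17 with 1 clone left out. It was 17 without clone I and 0 without L (917 unadjusted) or P (879 unadjusted); 3 without T and 2 without K. Called autosomal HMRs (2342) fell to 130 after centring and were 2446 to 3117 with 1 clone left out. Among autosomal HMRs above 0 in all clones, the main fit called 84. A fit of HMRs of that kind alone, with fewer regions tested, called 175 of them. Promoters apart by at least 0.2 (21) numbered 157 at a gap of 0.1, 3 at 0.3, and 22 to 48 with 1 clone left out, 48 without clone I and 33 without K. HMRs apart (1341) numbered 7030 at 0.1, 223 at 0.3, 654 after centring (574 above, 80 below), 775 among HMRs above 0 in all clones, and 1487 to 2716 with 1 clone left out, 2716 without clone I. Bins with clone E highest (238 of 256) became 414 of 498 at 5 Mb, 125 of 133 at 20 Mb and 56 after centring, and 238 to 244 with 1 clone left out. The cause of these changes was not tested, beyond what the settings change by construction. The mean differences stayed positive in the settings run, 0.00516 to 0.0157 for promoters and 0.0410 to 0.0569 for HMRs with 1 clone left out. Of 234 values of named promoters, 215 kept direction and side of the threshold, and the Slpi difference of -0.0103 ran from -0.0217 to 0.00625 with 1 clone left out, turning to 0.00625 without clone I and 0.00195 without P. Among 110 values of named HMRs, 103 kept both. Chosen after seeing the data, a fit of HMRs on autosomes alone gave 2274 calls, and the centred and left-out Olfr and Klr counts in the report were chosen likewise.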
